A study of Mus musculus with 41 samples.

Results

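A set of 40 germline and meiosis genes, most of them known from other work as genes that DNA methylation keeps silent outside the germline, were followed in E14 mouse embryonic stem cells with and without Esrrb. The genes were taken from a list drawn up for their function, but with earlier results of these data known. Their shares set against all genes are therefore not independent of these data. Genes were kept where they reached at least 1 count per 1000000 assigned reads (CPM) in at least 3 libraries. Of 40 listed genes 39 met this, against 16967 of all 55487 genes in the table, and the remaining one, Tdrd9, reached 1 CPM in 2 libraries. No methylation was measured in these libraries, so the name of the list describes what is known of the genes and not a result.

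Transcripts were counted with QuantSeq, which sequences a single tag from the 3′ end of an mRNA, in 41 libraries with 3424064 to 5736053 assigned reads each. The 3 E14 lines were Esrrb WT (15 libraries), and KO2 (15) and KO3 (11), both labelled as genetically depleted for Esrrb. Each line was sampled in 2iL (N2B27 medium with CHIR99021, PD0325901 and LIF; 3 libraries), and after 1 day in plain N2B27 and then 1, 3 or 5 days in AloXR (activin A, XAV and BMS439 in N2B27), a medium that turns naive stem cells into formative ones. These AloXR groups hold 4 libraries each, except KO3 at days 3 and 5 with 2 each. The labels give neither the lesion in Esrrb nor whether KO2 and KO3 are single clones. Whether libraries of 1 group were separate cultures is not stated either, so the p-values measure only the spread between these libraries, and an effect of Esrrb cannot be told apart from other differences between 1 WT line and 2 depleted lines. Esrrb RNA, the check on the labels, was 309 to 434 CPM in the WT 2iL libraries, 52.0 to 56.7 CPM in KO2 and 103 to 166 CPM in KO3, so it was lower in both depleted lines but not absent. At AloXR day 1 the KO3 libraries (26.1 to 41.4 CPM) stood above WT (12.2 to 17.8 CPM), and KO2 (1.64 to 5.52 CPM) below. At day 3 KO2 (1.16 to 3.20 CPM) overlapped WT (1.19 to 1.83 CPM), and KO3 (6.17 and 4.87 CPM) lay above it. By day 5 no library held more than 1.69 CPM and the 3 lines overlapped. Esrrb RNA was thus not lower than WT in either depleted line at day 3. In bulk RNA, fewer cells that express a gene and less RNA per cell cannot be told apart.

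Germline genes of this kind have CpG-rich promoters that are methylated when the embryo implants, after which the genes stay off in body tissues. Naive stem cells in 2iL carry little DNA methylation, and many of these genes are transcribed there at a low level. Before methylation, a Polycomb complex, PRC1.6, holds them down. It reaches their promoters through MGA with MAX, which read the E-box CACGTG, and through E2F6, which reads sites such as GCGGGA. The products work in meiosis and in germ cells: the synaptonemal complex and the chromosome axis join homologous chromosomes, and the piRNA pathway silences transposons.

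The promoter windows show these features in letters. RefSeq windows on GRCm38.p6, from 250 bases before to 50 bases after the transcript start, were matched for 36 of the 40 genes; Tex11, Meiob, Majin and Piwil2 were not matched. CACGTG, which reads the same on both strands, was present in 16 of 36 genes (44.4%) against 8.09% of 27025 genes with a window. GCGGGA, on either strand and so also as TCCCGC, was present in 18 (50%) against 22%. Both words were present in 9 (25%) against 2.65%, and neither in 11 (30.6%) against 72.5%. Some genes had several windows (43 for the 36 genes, 32851 for the 27025), and a word counted if any window of the gene held it. With the window richest in CG dinucleotides taken for each gene, their median number was 20 in 300 bases against 8. Each word contains a CG, and the windows of all genes were not matched for their number of CG dinucleotides. The part of CG content in the shares of both words was not tested. These words were searched as letters and a match is not a binding site. The 6 windows printed here belong to genes whose RNA the results turn on and show each combination of words; they run 5′ to 3′ along the gene, with the matched words in capitals.
Mael: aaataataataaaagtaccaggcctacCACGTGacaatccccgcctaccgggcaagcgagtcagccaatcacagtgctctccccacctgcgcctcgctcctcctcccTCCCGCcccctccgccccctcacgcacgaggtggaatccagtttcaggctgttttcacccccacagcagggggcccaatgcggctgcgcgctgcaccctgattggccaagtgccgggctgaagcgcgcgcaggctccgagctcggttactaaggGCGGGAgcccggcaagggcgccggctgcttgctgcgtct
Slc25a31: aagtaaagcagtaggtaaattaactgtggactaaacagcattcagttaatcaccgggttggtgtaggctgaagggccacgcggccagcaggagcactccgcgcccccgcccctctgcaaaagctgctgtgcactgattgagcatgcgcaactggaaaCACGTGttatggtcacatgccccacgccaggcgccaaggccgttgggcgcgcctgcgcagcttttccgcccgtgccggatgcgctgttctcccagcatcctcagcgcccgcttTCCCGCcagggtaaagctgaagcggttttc
Sycp3: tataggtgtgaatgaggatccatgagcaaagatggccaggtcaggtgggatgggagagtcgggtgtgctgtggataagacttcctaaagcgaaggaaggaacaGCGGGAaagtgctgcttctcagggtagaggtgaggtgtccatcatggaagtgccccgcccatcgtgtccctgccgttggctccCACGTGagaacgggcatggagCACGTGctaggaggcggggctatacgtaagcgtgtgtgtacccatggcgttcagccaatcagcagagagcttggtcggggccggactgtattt
Taf7l: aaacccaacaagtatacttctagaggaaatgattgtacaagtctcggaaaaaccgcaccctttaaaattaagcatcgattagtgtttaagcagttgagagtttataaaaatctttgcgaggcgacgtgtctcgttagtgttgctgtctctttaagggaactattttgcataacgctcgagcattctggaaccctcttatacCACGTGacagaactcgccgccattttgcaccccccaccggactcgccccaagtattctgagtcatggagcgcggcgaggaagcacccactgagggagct
Tex19.1: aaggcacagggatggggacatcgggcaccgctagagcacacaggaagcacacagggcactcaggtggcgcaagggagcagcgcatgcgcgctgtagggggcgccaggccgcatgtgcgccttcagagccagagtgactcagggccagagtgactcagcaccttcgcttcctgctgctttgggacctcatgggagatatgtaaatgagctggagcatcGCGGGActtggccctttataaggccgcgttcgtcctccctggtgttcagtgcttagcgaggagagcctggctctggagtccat
Dazl: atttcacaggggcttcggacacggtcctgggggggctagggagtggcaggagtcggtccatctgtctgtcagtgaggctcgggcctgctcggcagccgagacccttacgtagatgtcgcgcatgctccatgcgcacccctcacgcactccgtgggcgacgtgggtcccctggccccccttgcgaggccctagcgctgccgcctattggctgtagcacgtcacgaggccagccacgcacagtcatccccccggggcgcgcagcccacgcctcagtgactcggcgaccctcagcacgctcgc
Mael at chr1:166238695-166238994 (minus strand) and Slc25a31 at chr3:40708621-40708920 (plus strand) hold CACGTG once together with GCGGGA or TCCCGC, and Sycp3 at chr10:88459337-88459636 (plus strand) holds CACGTG at 2 places and GCGGGA at 1. Taf7l at chrX:134476441-134476740 (minus strand) holds CACGTG alone. Tex19.1 at chr11:121145893-121146192 (plus strand) holds GCGGGA alone. Dazl at chr17:50293571-50293870 (minus strand) holds neither word and has 28 CG dinucleotides.

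Some libraries stood apart within their groups. In each line the third 2iL library held 107 to 121 CPM of Dnmt3b, the methyltransferase that rises on exit from the naive state, while the first and second libraries held 39.7 to 59.9 CPM. Germline transcripts were low in the same libraries: 16 of 39 genes (41%) were below both other libraries in all 3 lines, against 15.6% of all genes tested, and 2 genes, Syce2 and Tex19.1, were above them in all 3 lines (5.13%, against 14.2% of all genes). Dazl shows it, with 201, 179 and 112 CPM in WT, 81.5, 46.5 and 41.9 CPM in KO2 and 67.6, 59.7 and 40.1 CPM in KO3. Tex19.1 went the other way, with 41, 59.3 and 91 CPM in WT and its highest value in the third library of KO2 and of KO3 as well. Without these 3 libraries the number of germline genes called in 2iL was 19 instead of 20. The cause of the difference between the libraries was not tested.

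**Figure D1:**
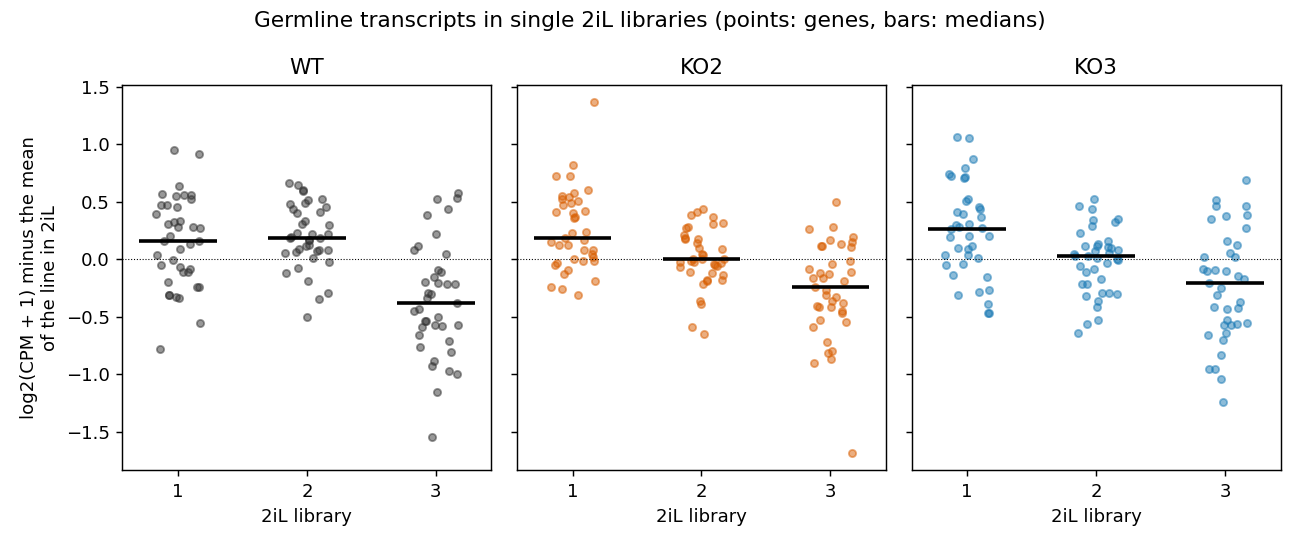
Each point is 1 of 39 germline genes in 1 of the 9 libraries grown in 2iL, as log2(CPM + 1) minus the mean of its line (y axis), by library (x axis) and line (panels); bars are medians. The medians of the third library are -0.38 in WT, -0.24 in KO2 and -0.21 in KO3, below those of the other libraries.

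Across the course the germline programme fell in WT cells. Of the 40 listed genes, 31 had a mean of at least 1 CPM in WT in 2iL, 32 at AloXR day 1, 18 at day 3 and 13 at day 5. At day 5, 23 of the 40 genes had no more than 3 reads in any of the 4 WT libraries, the limit that a count of 0 allows and equal to 0.523 to 0.876 CPM depending on the library. A gene was called when its change passed a Benjamini-Hochberg adjusted p of 0.05 over all 16967 genes (limma on log2(CPM + 1)) and was at least 1.5-fold, and, where the depleted lines were averaged, when both lines moved the same way. The log2(CPM + 1) scale understates the change of genes near 0.

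Against 2iL, 12 of 39 genes were called higher and 8 lower in WT at day 1, where 17.8% and 18.7% of all genes tested were called. The share called lower, 20.5% of the 39, was thus near that of all genes. At day 3, 5 were called higher and 27 lower (21% and 20.6% of all genes, 41.7% in either direction), with a median change of -1.30 against 0.03 over all genes. At day 5, 4 were called higher and 29 lower (22.7% and 16.6% of all genes), with a median of -1.64 against 0.09. At day 1 the median was still 0.23 against 0.03. Sycp1, Sycp2, Mael, Tdrkh, Tdrd5, Ddx4, Meioc and Slc25a31 were among the 12 genes that rose from 2iL to day 1, while Dazl, Stra8, Fkbp6, Rec8, Tex14, Rpl10l, Stk31 and Asz1 fell.

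The genes with the deepest WT fall to day 3 were Rpl10l, Dazl, Fkbp6, Sohlh2 and Hsf2bp. Rpl10l, the autosomal copy that replaces the X-linked ribosomal protein gene Rpl10 in male meiosis, went from 331, 296 and 341 CPM in 2iL to 0, 1.75, 2.37 and 0.72 CPM at day 3 (-7.34, SE 0.24, on the log2 scale). Reads of Rpl10l may be shared with Rpl10, so its level is uncertain. Dazl, an RNA-binding protein needed for germ cell development, went from 201, 179 and 112 CPM in 2iL to 19.3, 20.6, 14.4 and 15.4 CPM at day 1 and to 0, 0.65, 1.19 and 0.72 CPM at day 3 (-6.66, SE 0.28). In each of these genes the day 3 libraries lay far below every 2iL library. Hsf2bp, a partner of BRCA2 in meiotic recombination, fell from a mean of 335 to 8.42 CPM at day 3, and Fkbp6, a co-chaperone of piRNA loading, from 109 to 0.438 CPM.

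A few members went against the fall. Tdrkh, a Tudor protein that helps to trim piRNA ends, was 1.14, 2.08 and 0.64 CPM in WT 2iL, 6.65, 7.48, 7.43 and 8.10 CPM at day 1, and 42.5, 46.4, 38.7 and 41.2 CPM at day 5. Its groups did not overlap at any step, and the change to day 5 was 4.28 (SE 0.23) on the log2 scale. Sycp3, a lateral element protein of the synaptonemal complex, was 39.1, 32 and 17.4 CPM in 2iL and 114, 157, 108 and 110 CPM at day 3, a change of 2.07 (SE 0.31). Sycp2, its partner in the lateral element, and Tdrd5, a Tudor protein of the piRNA pathway, were also called higher at day 5, by 1.63 (SE 0.30) and 2.43 (SE 0.25).

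**Figure D2:**
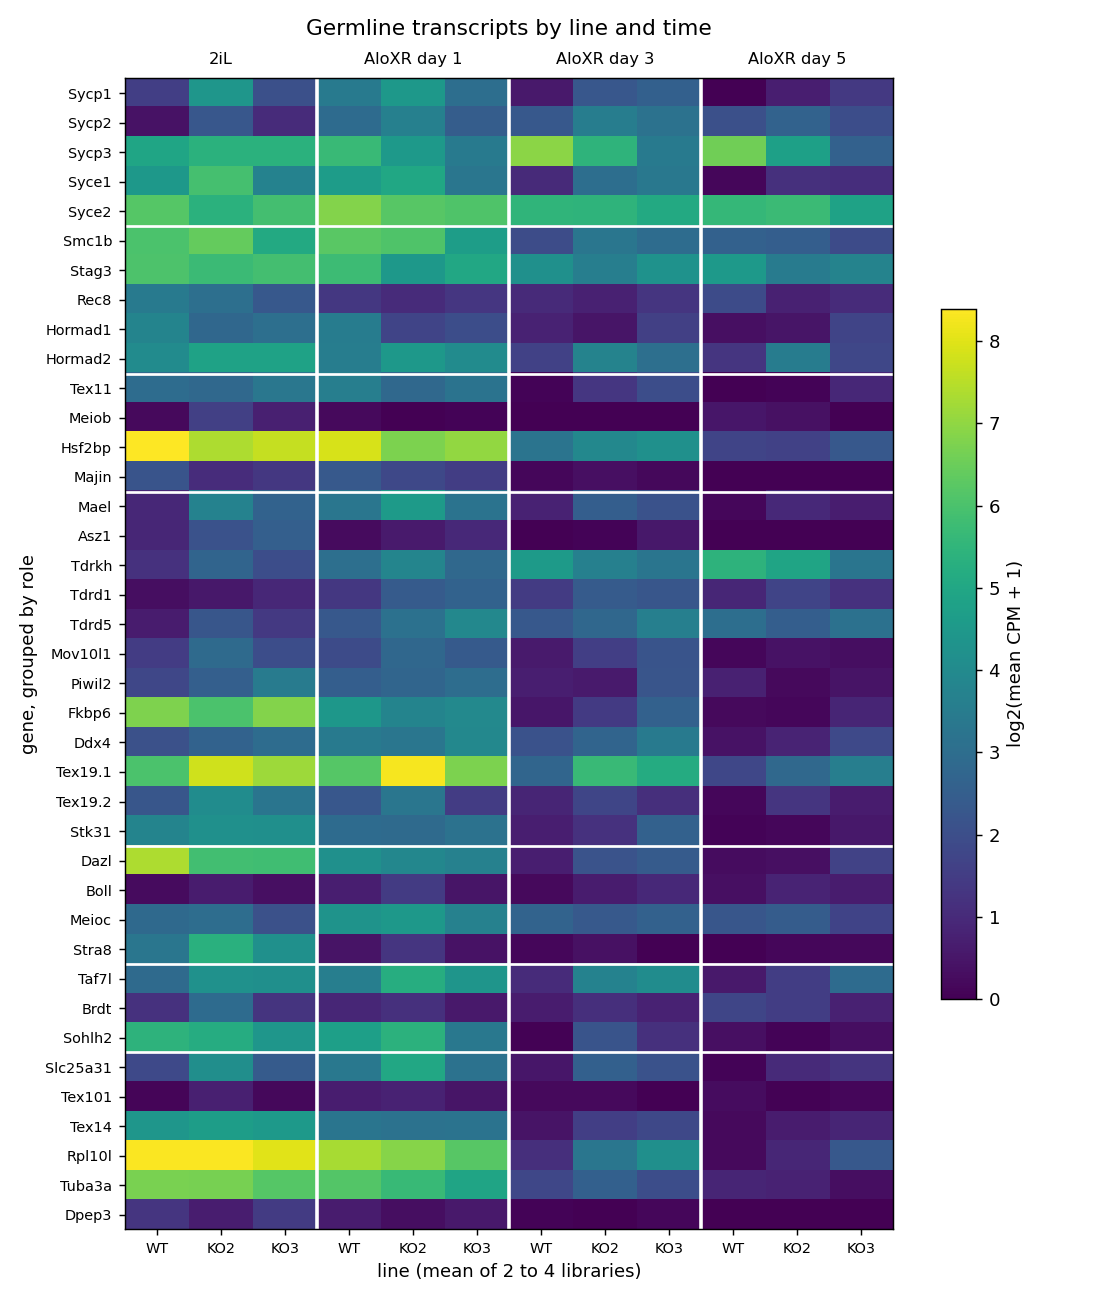
The colour gives log2(mean CPM + 1) of 39 germline genes (rows, grouped by role and split by white lines) in the 12 groups of line and time (columns). Most rows darken from 2iL to day 5 in all 3 lines; Sycp3 and Tdrkh brighten in WT, and at day 3 many rows are darker in WT than in KO2 and KO3.

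The germline genes fell in the depleted lines as well, but at day 3 more of them were still present than in WT. Against their own 2iL libraries, 9 of 39 genes were called higher and 17 lower at day 1 (14.9% and 17.4% of all genes), 4 and 26 at day 3 (19.9% and 18.4% of all genes, 38.3% in either direction), and 4 and 31 at day 5 (20.8% and 18.5% of all genes). Of the 40 genes, 29 in KO2 and 31 in KO3 still had a mean of at least 1 CPM at day 3, against 18 in WT, and 14 and 17 had at least 5 CPM, against 7 in WT. By day 5 those with at least 1 CPM were 17 in KO2 and 21 in KO3, against 13 in WT. Over the whole table, more genes had a read in most depleted libraries at day 3 as well. Such genes numbered 17504 to 18469 in WT, 18092 to 19428 in KO2, and 20161 and 19605 in the KO3 libraries. The part of this wider detection in the counts of germline genes was not tested. The summed level of the list overlapped between the lines at day 3, where it was 243 to 285 CPM in WT, 231 to 360 CPM in KO2 and 259 to 275 CPM in KO3, and Sycp3 alone was 122 of the mean WT sum of 259 CPM.

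Each time point gave a different balance of calls against WT. In 2iL, 16 of 39 genes were called higher and 4 lower in the depleted lines, where 8.11% and 7.60% of all genes tested were called, and the median change was 0.35 against 0.04. Among the 16, Asz1 and Meiob met the level filter only because of libraries of the depleted lines, where they were then called higher. At day 1, 6 were called higher and 8 lower (6.31% and 5.50% of all genes), with a median of 0.00. At day 3, 20 were called higher and 2 lower (10.8% and 6.49% of all genes), with a median of 0.90 against 0.03. At day 5, 11 were called higher and 4 lower (8.89% and 11.7% of all genes), with a median of 0.24. Of the 39 genes, 25 were not called at day 1 and 17 were not called at day 3. The count in 2iL, 20 in all, was 11 with only the 2iL groups in the fit, 11 with KO3 alone and 13 with a pseudocount of 5 CPM, and that at day 5, 15 in all, was 6 with that pseudocount. When each library was left out in turn, 11 of 20 calls in 2iL, 12 of 14 at day 1, 20 of 22 at day 3 and 10 of 15 at day 5 were kept in every fit.

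Markers of the stem cell state moved in the same day 3 comparison. Of 8 such genes, Zfp42, Klf4 and Tfcp2l1, which mark naive cells, were called higher in the depleted lines (1.75, SE 0.25; 1.35, SE 0.23; 1.13, SE 0.20), and Sall4 and Lin28a lower (-0.85, SE 0.14; -0.61, SE 0.19). Zfp42 had a mean of 0.857 CPM in WT against 2.77 CPM in KO2 and 8.91 CPM for KO3. The summed level of the 8 genes was 587 to 617 CPM in WT, 387 to 477 CPM in KO2, and 385 and 387 CPM in the KO3 libraries, while that of 4 formative markers was 3090 to 3470, 2410 to 2690, and 2350 and 2390 CPM. Of 8 fibroblast and feeder genes 6 passed the level filter, and Col1a1, Col1a2 and Pdgfrb were called higher and Thy1 lower at day 3. Their summed level was 20.3 to 26.8 CPM in WT, 56.2 to 102 CPM in KO2, and 20.2 and 24.3 CPM in the KO3 libraries, so KO2 stood apart and KO3 lay near WT. None of the 8 was at 0 in all libraries. The part of these markers in the germline calls was not tested.

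**Figure D3:**
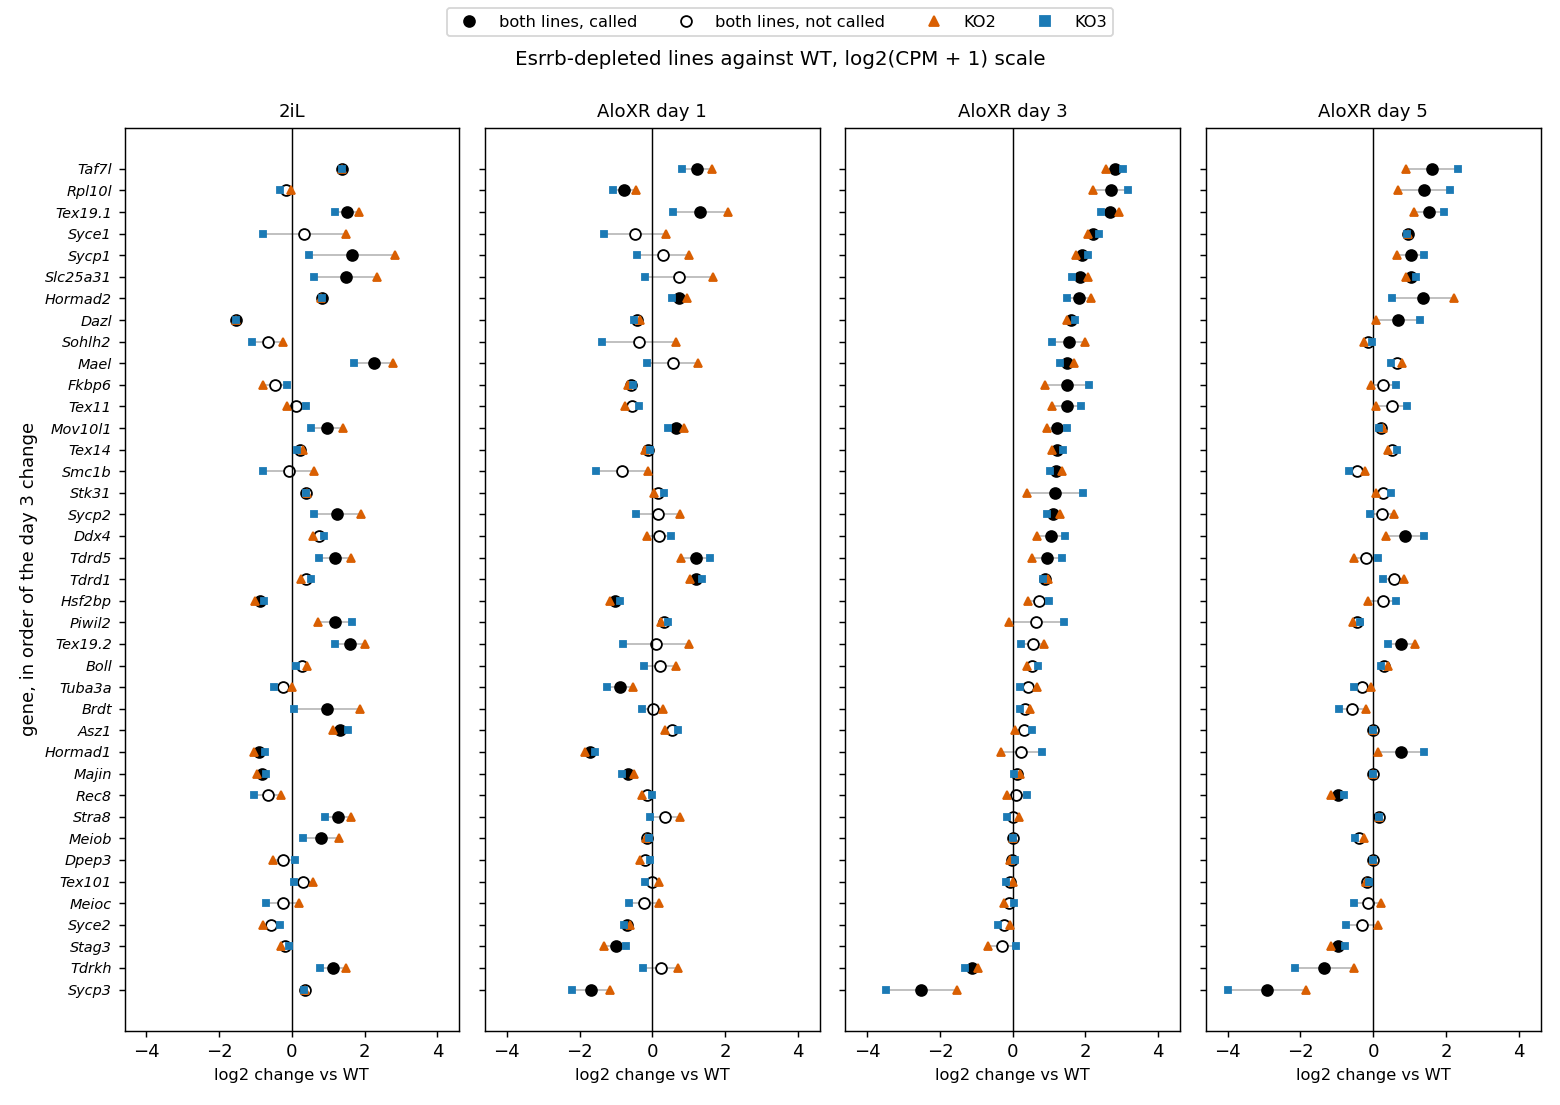
Log2 change of 39 germline genes against WT (x axis) at 4 times (panels), on the log2(CPM + 1) scale; circles are the mean of both depleted lines (filled where called), triangles KO2 and squares KO3. At day 3 most circles lie to the right of 0, with Taf7l, Rpl10l and Tex19.1 at 2.80, 2.69 and 2.67, and Sycp3 lies at -2.51.

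Whether the change from 2iL itself differed between depleted and WT lines was tested as a difference of changes. To day 1, 1 gene (Dazl) was called as moving more upward or less downward in the depleted lines and 6 the other way (4.79% and 4.37% of all genes, 9.15% in either direction). To day 3 the counts were 12 and 3 (8.41% and 6.37% of all genes). To day 5 they were 3 and 9 (7.53% and 10.4% of all genes). The contrasts against WT and these differences share the same libraries.

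Among the transcription and RNA-binding factors, the germline RNA polymerase II factor Taf7l changed most. Taf7l (ENSMUSG00000009596, chrX:134460118-134476490) encodes a testis paralog of the TFIID subunit TAF7. At day 3 it was 0.81, 1.09, 1.19 and 1.09 CPM in WT, 14.9, 20.2, 5.84 and 8.14 CPM in KO2 and 14.2 and 17.5 CPM in KO3. Every depleted library lay above every WT library, and the change was 2.80 (SE 0.33, adjusted p = 1.75e-08). It was also called higher in 2iL (1.39, SE 0.35), at day 1 (1.23, SE 0.30) and at day 5 (1.61, SE 0.33). The day 1 call was lost with KO3 alone (0.81, adjusted p = 0.0947), and the day 5 call with KO2 alone (0.89, adjusted p = 0.0593). The call in 2iL was lost without the third WT library, which held 1.93 CPM against 9.10 and 8.33 CPM (0.81, adjusted p = 0.0877).

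Dazl changed direction between times. Dazl (ENSMUSG00000010592, chr17:50279395-50293636) was lower in the depleted lines in 2iL, at the values given above, by -1.53 (SE 0.26, adjusted p = 1.03e-05), with all 6 depleted libraries below all 3 WT libraries. At day 3 it was 0, 0.65, 1.19 and 0.72 CPM in WT, 3.65, 4.04, 3.33 and 2.71 CPM in KO2 and 3.08 and 5.60 CPM in KO3. There every depleted library was above WT, by 1.6 (SE 0.24). Its change from 2iL to day 3 was smaller in the depleted lines, by 3.13 (SE 0.35) on the log2 scale. At day 5 the call (0.69, SE 0.24) rested on KO3: KO3 held 0.97 and 3.40 CPM, while KO2 (0 to 0.473 CPM) lay within WT (0 to 0.682 CPM), and without the second KO3 library the change was 0.40 (adjusted p = 0.274). It was also lost without the second or the fourth WT library (0.60 in both, adjusted p = 0.0822 and 0.0829).

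Sohlh2 (ENSMUSG00000027794, chr3:55182028-55209957), a basic helix-loop-helix factor of early gametogenesis, was 26.6 to 59.8 CPM in WT in 2iL and was 0, 0, 0 and 0.18 CPM in WT at day 3. KO2 then held 5.71, 4.79, 1.67 and 1.94 CPM and KO3 1.23 and 1.22 CPM. The groups did not overlap at day 3 (1.55, SE 0.25), and the gene was not called at the other times. Brdt, a testis bromodomain protein, was called higher in 2iL only through KO2: KO2 had a mean of 6.73 CPM, KO3 1.37 and WT 1.29 CPM, and the change without the first WT library was 0.57 (adjusted p = 0.233). Without the first KO3 library it was 0.77 (adjusted p = 0.0375), but KO3 no longer moved with KO2 and the gene was not called. Stra8, which starts meiosis in response to retinoic acid, was called higher in 2iL (1.27, SE 0.37), with 10.5, 10.7 and 5.36 CPM in WT, 74.8, 35.7 and 8.16 CPM in KO2 and 19.6, 21.8 and 11.2 CPM in KO3. The third library of KO2 lay within WT, and without the third WT library the adjusted p was 0.0765. Meioc, which keeps meiotic cells in prophase, and Boll, a relative of Dazl, were not called at any time against WT.

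**Figure D4:**
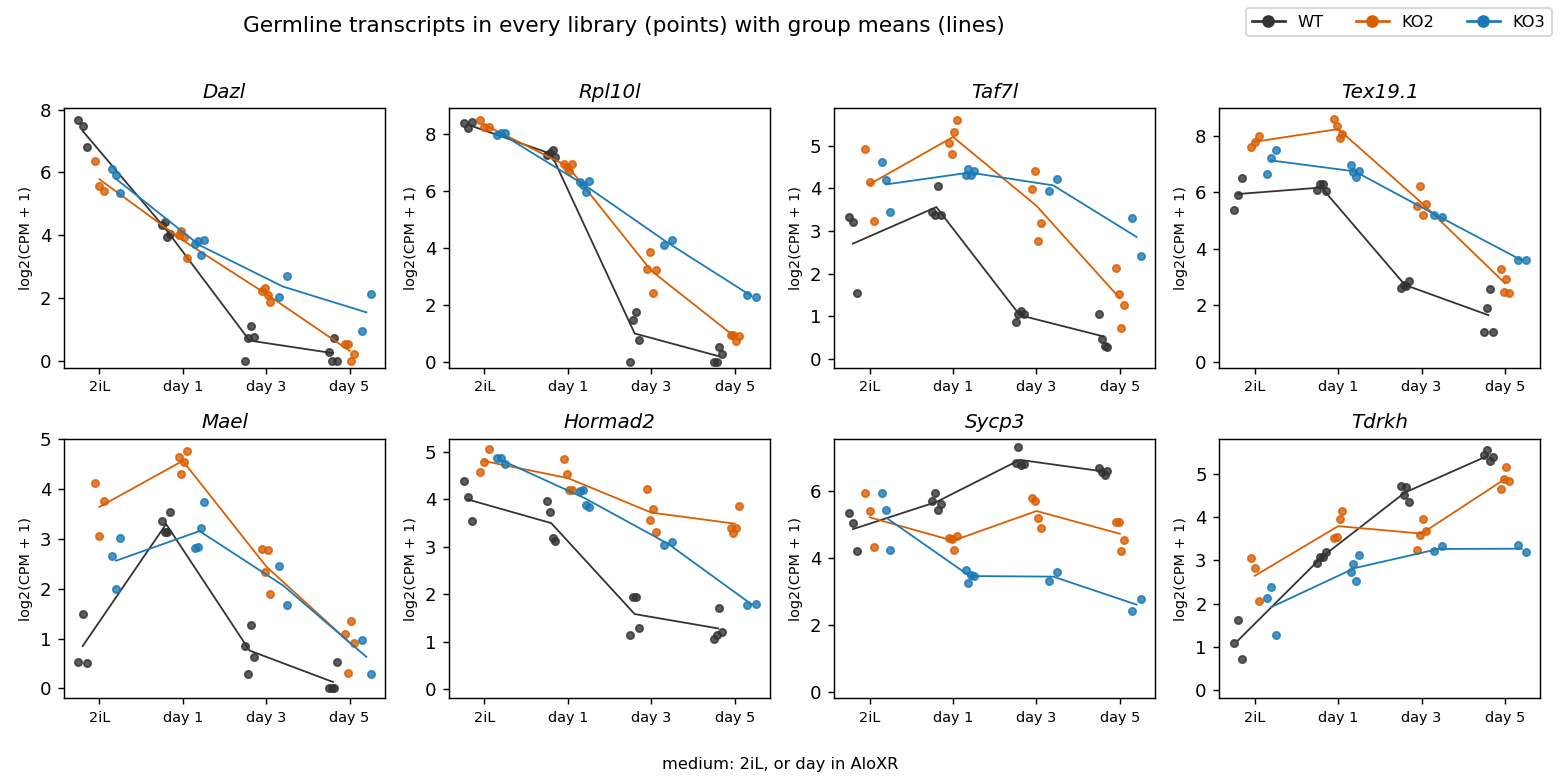
Points are single libraries and lines join group means, as log2(CPM + 1) (y axis) by time (x axis) for 8 germline genes in WT, KO2 and KO3. In Dazl, Rpl10l, Taf7l, Tex19.1, Mael and Hormad2 the WT points lie below the depleted points at day 3, and in Sycp3 and Tdrkh they lie above them.

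In the piRNA pathway and transposon control set, 12 of 13 listed genes were tested. In 2iL 8 were called higher and none lower, at day 1 it was 4 and none, at day 3 it was 8 and 1, and at day 5 it was 3 and 1. Over all genes tested, 8.11% were called higher and 7.60% lower in 2iL, 6.31% and 5.50% at day 1, 10.8% and 6.49% at day 3, and 8.89% and 11.7% at day 5. Tex19.1 was the most abundant of those called. Tex19.1 (ENSMUSG00000039329, chr11:121146143-121148319) encodes a mammal-specific protein that restrains retrotransposons in germ cells. At day 3 it was 5.07, 5.68, 5.45 and 6.33 CPM in WT, 45.2, 73.7, 35.9 and 46.7 CPM in KO2 and 35.6 and 33.8 CPM in KO3. The change was 2.67 (SE 0.24, adjusted p = 1.18e-10), with no overlap. It was higher in the depleted lines at each of the 4 times, by 1.52 in 2iL, 1.32 at day 1 and 1.53 at day 5, and at day 1 KO2 reached 245 to 387 CPM against 92.3 to 123 CPM in KO3, which alone was not called (0.57, adjusted p = 0.108).

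Its paralog Tex19.2 (ENSMUSG00000039337, chr11:121116215-121118677) was called higher in 2iL (1.6, SE 0.28), with 6.83, 3.38 and 1.07 CPM in WT, 15.5, 14.2 and 17.6 CPM in KO2 and 6.90, 8.41 and 10.5 CPM in KO3. The lowest KO3 library was close to the highest WT library. Reads of these neighbouring paralogs may be shared, so their separate values are uncertain. The day 5 call of Tex19.2 (0.77, SE 0.26) rested on values of 1.11 to 2.13 CPM in KO2, and without the second KO3 library, at 1.13 CPM, it was lost (0.50, adjusted p = 0.21), as it was without the first or the second WT library (adjusted p = 0.0584 and 0.0568).

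Mael (ENSMUSG00000040629, chr1:166201201-166238747), Maelstrom, acts with nuclear and cytoplasmic piRNA granules. In 2iL it was 0.46, 1.82 and 0.43 CPM in WT, 16.4, 7.30 and 12.6 CPM in KO2 and 5.34, 3.00 and 7.15 CPM in KO3. All 6 depleted libraries were above WT, and the change was 2.25 (SE 0.28, adjusted p = 2.98e-08), the largest among the 39 genes at that time. At day 1 WT held 7.84 to 10.7 CPM, KO3 6.09 to 12.4 CPM and KO2 18.9 to 26.2 CPM. Thus KO3 overlapped WT at day 1, and the mean of both lines was not called (0.56, adjusted p = 0.0997). At day 3 WT was back at 0.22 to 1.42 CPM, while KO2 held 2.71 to 5.94 CPM and KO3 2.19 and 4.52 CPM, a change of 1.5 (SE 0.27).

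Other piRNA genes gave smaller values. Asz1, a germ cell protein at the mitochondrial surface, was 0.46, 1.56 and 0.64 CPM in WT in 2iL, 5.55, 3.25 and 1.26 CPM in KO2 and 8.23, 4.01 and 2.27 CPM in KO3 (1.33, SE 0.25). From day 1 on, its group means were all under 1 CPM. Only 1 WT library reached 1 CPM of Asz1, so the gene met the level filter through the depleted lines. Piwil2, the Piwi protein MILI, was called higher in 2iL (1.20, SE 0.28), with a mean of 2.42 CPM in WT against 4.80 CPM in KO2 and 10.2 CPM for KO3. Mov10l1, an RNA helicase of piRNA production, was called higher in 2iL, at day 1 and at day 3, and Tdrd5 at the same 3 times. The Mov10l1 calls in 2iL (0.70, adjusted p = 0.0692 without the third WT library) and at day 1 (lost in 7 of 12 fits that left out 1 library, as with 0.61, adjusted p = 0.0959, without the first WT library) depended on single libraries. The other 6 libraries of day 1 without which it was lost were WT 2 and 3, KO2 3 and KO3 1, 2 and 3, with adjusted p = 0.0502 to 0.0766. Tdrd1, a Tudor scaffold, was called at days 1 and 3, the latter lost without the second WT library (0.78, adjusted p = 0.077), the first WT library (adjusted p = 0.0531) or the first KO3 library (adjusted p = 0.0585). Ddx4, the germ cell helicase Vasa, was called at days 3 and 5, the latter lost without the first KO3 library (0.67, adjusted p = 0.0924). Fkbp6 and Stk31, a Tudor-domain kinase-like protein, were called at day 3 only, at 1.49 (SE 0.26) and 1.16 (SE 0.24). With KO2 alone the day 3 calls of Stk31 (0.39, adjusted p = 0.319), Ddx4 (0.68, adjusted p = 0.0878) and Tdrd5 (0.53, adjusted p = 0.104) were lost.

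Tdrkh was the member of this set that was called in both directions. It was higher in the depleted lines in 2iL (1.14, SE 0.21), was not called at day 1, and was lower at day 3 (-1.13, SE 0.20) and day 5 (-1.35, SE 0.20). At day 3 WT held 25.4, 21.8, 24.9 and 19.5 CPM, while KO2 held 8.45, 11.1, 14.6 and 11.8 CPM and KO3 held 8.23 and 9.0 CPM. No library of the depleted lines reached WT. At day 5 KO2 had 24.4 to 34.7 CPM and KO3 8.15 and 9.18 CPM, so the 2 lines also did not overlap each other, and KO3 against KO2 was -1.62 (SE 0.26).

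In the synaptonemal complex, which zips homologous chromosomes together, the members split. Sycp1, Sycp2 and Syce1 were called higher at day 3, Sycp3 was called lower, and Syce2 was not called. Syce1 (ENSMUSG00000025480, chr7:140777229-140787852), a central element protein, was 1.22, 0.22, 1.66 and 0.90 CPM in WT at day 3, 8.91, 6.06, 6.46 and 7.17 CPM in KO2 and 6.99 and 11.4 CPM in KO3. The change was 2.22 (SE 0.24, adjusted p = 4.53e-10) and no library overlapped. In 2iL the lines differed from each other instead, with a mean of 21.4 CPM in WT against 59.6 CPM in KO2 and 12.2 CPM for KO3, and no call.

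Sycp1 (ENSMUSG00000027855, chr3:102818499-102936100), the transverse filament protein, was 2.50, 1.04 and 2.36 CPM in WT in 2iL, 26.6, 19.9 and 14.7 CPM in KO2 and 3.11, 2.00 and 4.18 CPM in KO3. The call in 2iL (1.66, SE 0.26) was therefore mainly that of KO2, and KO3 alone was not called (0.47, adjusted p = 0.325). At day 3 both lines were above WT: 0.20, 0, 1.42 and 0.36 CPM in WT, 5.48, 4.54, 2.29 and 3.30 CPM in KO2 and 4.94 and 4.87 CPM in KO3 (1.91, SE 0.24). At day 5 all 4 WT libraries were at 0, KO2 held 0.68, 0.71, 1.11 and 0 CPM and KO3 1.69 and 1.59 CPM. Sycp1 was called there, but KO2 alone was not (0.65, adjusted p = 0.0592) and its mean of 0.627 CPM lay under the 0.646 CPM that 3 reads give in a WT library on average, so no fold is given.

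Sycp3 (ENSMUSG00000020059, chr10:88459569-88473236) moved away from WT in the opposite direction. In 2iL the lines overlapped (39.1, 32 and 17.4 CPM in WT, 60.2, 40.8 and 18.8 CPM in KO2, 59.6, 41.9 and 18 CPM in KO3). At day 3 WT held 114, 157, 108 and 110 CPM, while KO2 held 54.6, 51.0, 35.9 and 28.7 CPM and KO3 held 8.84 and 11 CPM. The 3 lines were fully separate, with WT above KO2 and KO2 above KO3. The change against WT was -1.68 (SE 0.25) at day 1, -2.51 (SE 0.27) at day 3 and -2.92 (SE 0.27, adjusted p = 6.25e-10) at day 5. KO3 was also lower than KO2 at days 1, 3 and 5, by -1.06 (SE 0.29), -1.96 (SE 0.36) and -2.12 (SE 0.36).

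Among the cohesin and axis genes, HORMA-domain proteins that mark unsynapsed chromosome axes gave the clearest values. Hormad2 (ENSMUSG00000020419, chr11:4345814-4441105) was 1.22, 2.84, 2.85 and 1.45 CPM in WT at day 3, 17.6, 10.9, 12.9 and 8.92 CPM in KO2 and 7.20 and 7.54 CPM in KO3, a change of 1.81 (SE 0.21, adjusted p = 2.36e-09) with no overlap. It was called higher at all 4 times, but in 2iL the call was lost without the third WT library (0.60, adjusted p = 0.068). With KO3 alone it was not called at day 1 (0.53, adjusted p = 0.0785) or at day 5 (0.51, adjusted p = 0.149). At day 5 KO2 stayed at 8.75 to 13.6 CPM, KO3 at 2.42 and 2.49 CPM and WT at 1.09 to 2.27 CPM.

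Hormad1 (ENSMUSG00000028109, chr3:95559677-95587671) went the other way in 2iL and at day 1. At day 1 it was 8.75, 11.2, 12.6 and 9.17 CPM in WT, 0.75, 2.53, 2.79 and 3.00 CPM in KO2 and 3.48, 1.75, 4.50 and 2.03 CPM in KO3. All 8 depleted libraries were below WT, and the change was -1.72 (SE 0.22, adjusted p = 8.85e-08). In 2iL it was -0.89 (SE 0.26), a call that was lost without the second WT library (-0.80, adjusted p = 0.0612). At day 5 it was called higher (0.77, SE 0.24) through KO3 at 1.93 and 2.72 CPM, since KO2 (0 to 0.71 CPM) overlapped WT (0 to 0.436 CPM). That call was lost without the third WT library (0.66, adjusted p = 0.0546) and without the second KO3 library (0.68, adjusted p = 0.062).

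Smc1b, a meiotic cohesin subunit, was called higher at day 3 (1.19, SE 0.36), with a mean of 2.88 CPM in WT against 8.86 CPM in KO2 and 6.73 CPM for KO3; without the second KO3 library the adjusted p was 0.0533. Stag3, another cohesin subunit, was called lower at day 1 (-1.01, SE 0.26) and day 5 (-0.97, SE 0.28). Rec8, the meiotic kleisin, was called lower at day 5 (-0.98, SE 0.31), a call lost without the first or the third WT library (adjusted p = 0.0596 and 0.0559). It lies on a stretch of chromosome 14 where neighbouring genes were also low in the depleted lines, with a median of -0.78 at day 5, and its change relative to these neighbours was -0.20 (adjusted p = 0.657).

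The recombination genes were called mostly in the lower direction before day 3. Hsf2bp was 381, 354 and 271 CPM in WT in 2iL, 187, 162 and 146 CPM in KO2 and 238, 200 and 158 CPM in KO3. All depleted libraries were below WT, by -0.88 (SE 0.31, adjusted p = 0.0398), yet this call was lost in 6 of 9 fits that left out 1 library: WT 1 or 2, KO2 2 or 3, or KO3 2 or 3 (adjusted p = 0.0551 to 0.163). At day 1 it was -1.02 (SE 0.27) and was kept in every such fit. Majin, which tethers telomeres to the nuclear envelope, was called lower in 2iL and at day 1 with no library above 5.78 CPM, and both calls were lost without the first WT library (adjusted p = 0.179 and 0.125). The 2iL call was also lost without the second WT library (adjusted p = 0.121). Tex11 (ENSMUSG00000009670, chrX:100838648-101059667), an X-linked protein of meiotic crossovers, was called at day 3 only (1.49, SE 0.25). There WT held 0, 0, 0.24 and 0 CPM, while KO2 held 2.51, 2.52, 1.04 and 0 CPM and KO3 held 2.47 and 3.41 CPM, so 1 KO2 library was at 0 like WT. Meiob, which binds single-stranded DNA in meiosis, was called higher in 2iL at no more than 2.84 CPM in any library, a call lost without the first KO3 library (0.54, adjusted p = 0.081), the third WT library (adjusted p = 0.0756) or the second KO2 library (adjusted p = 0.0535). No WT library held more than 0.682 CPM of Meiob, so the gene met the level filter only through the depleted lines.

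The last set holds products of varied function. Slc25a31 (ENSMUSG00000069041, chr3:40708855-40726096), an ADP/ATP carrier of germ cell mitochondria, was 0.20, 0, 0.95 and 0.54 CPM in WT at day 3, 7.08, 5.30, 4.17 and 3.10 CPM in KO2 and 3.70 and 2.92 CPM in KO3. All depleted libraries were above WT (1.85, SE 0.24). At day 1 KO2 alone stood out, with 28.4 to 34.6 CPM against 8.23 to 10.3 CPM in WT and 6.78 to 9.0 CPM in KO3. Rpl10l (ENSMUSG00000060499, chr12:66283379-66284401) had 8.68, 13.6, 4.38 and 8.34 CPM in KO2 and 16 and 18.3 CPM in KO3 at day 3, above the WT values given above (2.69, SE 0.21, adjusted p = 9.82e-14). It was lower in the depleted lines at day 1 (-0.77, SE 0.19), with no overlap in either case. Tex14, a protein of germ cell bridges, was called higher at day 3 (1.22, SE 0.25), and Tuba3a, a testis tubulin whose reads may be shared with other tubulin genes, was called lower at day 1 (-0.88, SE 0.21). Tex101 and Dpep3, germ cell surface proteins, were not called at any time against WT, with group means of at most 0.760 and 1.77 CPM.

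KO2 and KO3 were also compared with each other, with only 2 KO3 libraries at days 3 and 5. In 2iL no gene was called higher and 10 were called lower in KO3 than in KO2 (2.50% and 4.74% of all genes, 7.24% in either direction), among them Sycp1, Syce1, Brdt and Slc25a31. At day 1 it was 1 higher (Tdrd5) and 15 lower (8.19% and 6.79% of all genes), among them Sohlh2, Tex19.2, Slc25a31 and Tex19.1. At day 3, 5 were higher and 1 lower (5.58% and 2.11% of all genes, 7.69% in either direction), and at day 5, 5 were higher and 4 lower (9.02% and 5.06% of all genes). Rpl10l and Hormad1 were higher in KO3 at both late times. Within KO2 at day 3, libraries 1 and 2 lay above libraries 3 and 4 for 16 of 39 genes (41%), against 15.5% of all genes; Taf7l shows it, with 14.9 and 20.2 CPM against 5.84 and 8.14 CPM.

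Genes of the DNA methylation machinery were examined in the same comparisons. Of 12 such genes, 3 were called higher and 1 lower in 2iL, 1 and 3 at day 1, 2 and 1 at day 3, and 2 and none at day 5. The shares of all genes called in either direction were 15.7%, 11.8%, 17.3% and 20.6%. Dnmt3a, a de novo methyltransferase, was 42.3 CPM in WT against 97.7 CPM in KO2 and 71.9 CPM for KO3 in 2iL (1.00, SE 0.10). At day 1 the order was turned, with 626 to 674 CPM in WT, 287 to 311 CPM in KO2 and 169 to 196 CPM in KO3 (-1.47, SE 0.09). Dnmt3b was also lower at day 1, with means of 2294, 1585 and 1322 CPM (-0.66, SE 0.23). Dnmt3l, their cofactor, was 0.20 to 0.65 CPM in WT at day 3, 7.95 to 18.7 CPM in KO2 and 24.1 and 26.1 CPM in KO3 (3.72, SE 0.33). Dppa3, which keeps UHRF1 away from chromatin, was higher in 2iL, at day 1 (1.70, SE 0.35) and at day 3 (2.19, SE 0.38). Their part in the germline values was not tested.

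For the lists that follow, the shares of all genes called higher and lower are those given for the piRNA set. They were 8.11% and 7.60% in 2iL, 6.31% and 5.50% at day 1, and 10.8% and 6.49% at day 3. Of 15 PRC1.6 genes, Wdr5 was called lower in 2iL (-1.13, SE 0.10) and Rybp higher at days 3 and 5 (0.86, SE 0.21, and 0.84, SE 0.21), and no other was called against WT. Of 9 genes for H3K9 methylation and heterochromatin, Setdb1 was called lower in 2iL (-0.83, SE 0.18) and no other was called. Among related genes outside the 40, 1 was called higher and 1 lower of 20 tested meiosis genes at day 3, and 2 higher and 1 lower of 12 tested piRNA genes. At day 1, 4 of the 20 and 4 of the 12 were called lower, Rec114 (-1.67, SE 0.20) and Rnf17 (-1.27, SE 0.19) most. In 2iL the largest called changes of these piRNA genes, at 5 CPM or more in some group, were downward. They were Rnf17 (-0.94, SE 0.21), Gtsf1 (-0.89, SE 0.29) and Pld6 (-0.86, SE 0.28), while none of the listed piRNA genes was called lower there. Of these meiosis genes, Terb2 was called higher in 2iL (1.15, SE 0.30) and Rec114 lower (-1.07, SE 0.23). Of 8 primordial germ cell genes, 3 were called higher at day 3, with Tfap2c at a mean of 0.998 CPM in WT against 18.5 CPM in KO2 and 45.5 CPM for KO3. In 2iL Kit was called lower (-2.06, SE 0.29), with means of 101 CPM in WT, 26.9 CPM in KO2 and 20.4 CPM in KO3. Nanos3 (1.21, SE 0.24) and Ifitm3 (0.83, SE 0.19) were called higher there. The part of these primordial germ cell genes in the germline calls was not tested either. Of the 15 tested members with CACGTG in their window 9 were called higher and 1 lower at day 3, and of the 20 without it 10 were called higher and 1 lower.

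Markers of later germ cells were mostly near 0. Of 11 genes of late spermatogenic cells 3 passed the level filter, and Prm2, Akap4 and Tssk2 were at 0 in all 41 libraries. The summed level of these 11 genes was 9.23 to 11.7 CPM in WT in 2iL, 19.5 to 23.5 CPM in KO2 and 19.7 to 27.4 CPM in KO3, and Ldhc, the sperm lactate dehydrogenase, reached 23.7 CPM in its highest library. The 3 genes that passed, Ldhc, Tnp1 and Odf1, were called higher in 2iL as many of the 40 were, and their part in that result was not tested. At day 3 it was 7.83 to 9.77 CPM in WT, 13 to 16.9 CPM in KO2 and 7.79 to 12.3 CPM in KO3. Of 7 oocyte genes 1, Zp3, passed, and Oosp1 was at 0 throughout. All 8 stem cell markers and all 4 formative markers passed the filter, at summed levels of 266 to 2640 CPM and 44.1 to 3570 CPM.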

How the data were processed

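The deposited table holds CPM per Ensembl gene, that is reads assigned to a gene per 1000000 assigned reads, as the authors scaled them. Per the submitters' processing notes, the tools were STAR 2.7.6a and featureCounts 2.0.1 (Subread) with GRCm38; their settings, and whether strand was used, are not given in the sources used here. Each column sums to 1000000, and 100% of 766190 values above 0 were whole numbers of reads within 0.01 reads, which gave depths of 3424064 to 5736053 (median 4581394). Mitochondrial genes took 2.18 to 5.15%.

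The scale was log2(CPM + 1). Genes entered the fit if 3 or more libraries reached 1 CPM. The model, fitted with limma 3.58.1 (R 4.3.3), had 1 mean per group over 12 groups and 41 libraries (29 residual degrees of freedom), empirical Bayes with trend and robust variances, 17 contrasts, and Benjamini-Hochberg adjustment over 16967 genes within each. The scripts were tested on simulated data. edgeR 4.0.16 (quasi-likelihood) on the recovered reads was an alternative and called 2461, 2070, 2821 and 3348 genes against WT in 2iL and at days 1, 3 and 5. Intervals from read counts cover counting error only.

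The 40 genes and the other lists were chosen with earlier results of these data known. Library values are given for the 14 called members with the largest change against WT among those whose mean reached 5 CPM in some group, and values for others where a result turned on them; from other lists, up to 3 called genes per comparison, with that same minimum level. Library numbers within a group are in accession order; they are names only and were not used to pair libraries.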

Additional observations from a re-analysis of the deposited data

Results flagged for a closer look

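Among the 14 genes followed by library, 98 groups of 4 libraries were checked for a library whose gap to the nearest other was too large for its group (Dixon's criterion), and 10 had one; chance gives about 1 in 20 groups. In WT these were Sycp3 at day 3 (library 2, 156.50 CPM), Taf7l at day 1 (library 3, 15.68 CPM), Mael at day 5 (library 4, 0.44 CPM), Slc25a31 at day 5 (library 3, 0.23 CPM), Sohlh2 at day 3 (library 4, 0.18 CPM) and Tex11 at day 3 (library 3, 0.24 CPM). In KO2 they were Hormad2 at day 5 (library 4, 13.64 CPM), Sohlh2 at day 5 (library 2, 0.24 CPM), and Tex11 at day 1 (library 2, 8.05 CPM) and at day 5 (library 1, 0.23 CPM). Of these 10 values, 6 are 1 or a few reads in groups otherwise at 0. In such groups any single value above 0 meets the criterion. The rate of 1 in 20 does not apply to them, so the 10 of 98 groups cannot be set against it.

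The change from 2iL differed between the depleted lines and WT in 20 tests of these 14 genes (limma, adjusted p under 0.05 and at least 1.5-fold). To day 1 the depleted change minus the WT change was -2.03 for Sycp3, -1.69 for Mael, -1.37 for Sycp1, -1.5 for Tex19.2 and 1.11 for Dazl on the log2 scale. To day 3 it was -2.85 for Sycp3, 1.41 for Taf7l, 2.85 for Rpl10l, 1.15 for Tex19.1, 1.88 for Syce1, 0.99 for Hormad2, 1.13 for Hormad1, 3.13 for Dazl, 2.21 for Sohlh2 and 1.37 for Tex11. To day 5 it was -3.27 for Sycp3, 1.56 for Rpl10l, -1.61 for Mael, 1.66 for Hormad1 and 2.22 for Dazl. This difference of changes was negative for Sycp3 and positive for Dazl at all 3 times. It depends on the level in 2iL as well as on the later level. In 2iL the means of both depleted lines were above WT for Mael, Sycp1 and Tex19.2, and below WT for Dazl and Hormad1. At day 1 the Dazl means of both depleted lines were still below WT, so its positive difference there is not a higher level.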

How the results depend on the processing

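The counts of germline genes called against WT at days 1 and 3, and those of the WT and depleted courses, moved by less than 1.5 times under another pseudocount (0.5 or 5 CPM), no filter on low values, quantile normalization, edgeR, position-centred values, removal of the third 2iL libraries, a fit of the compared groups only, and, where it applied, 1 depleted line at a time. With a pseudocount of 5 CPM the count was 13 in place of 20 in 2iL, 6 in place of 15 at day 5 and 5 in place of 9 for KO3 against KO2 at day 5. With only the compared groups in the fit it was 11 in 2iL and 3 in place of 10 for KO3 against KO2 in 2iL. With KO3 alone it was 11 in 2iL and, for the difference of changes to day 1, 4 in place of 7; without a filter that difference also gave 4. Leaving out 1 library at a time gave 17 to 21 in 2iL, 4 to 8 for the difference of changes to day 1 (4 without WT library 1 of 2iL or 4 of day 1), 5 to 12 for KO3 against KO2 in 2iL (5 without KO2 library 1, 6 without KO2 library 2 or KO3 library 2), and 2 to 8 in place of 6 at day 3 (2 without either KO3 library). The causes were not tested, and the latter fits also hold fewer libraries.

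No change of a named gene was reversed under any of these settings. Of the calls against WT, 4 of 20 in 2iL, 5 of 14 at day 1, 13 of 22 at day 3 and 2 of 15 at day 5 were kept in every setting other than leave-one-out; the pseudocount of 5 CPM lost 27 calls, KO3 alone 21 and KO2 alone 13. The leave-one-out fits of named genes were added after seeing the data. No paired analysis was possible because the labels carry no replicate numbers that groups share. Levels under about 1 CPM rest on a few reads.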
